A study of Homo sapiens with 6 samples.

Results

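The 28 mRNAs described here encode proteins of the small (40S) subunit of the cytosolic ribosome. They were chosen by gene symbol as named 40S proteins. That rule holds no measured value, but the set was proposed with earlier results of these data known. Each symbol had 1 row in the table, so the set was 28 of 60664 genes. Other proteins of the subunit were not analysed here. All samples were of K562, an established human erythroleukemic cell line, grown in RPMI medium and treated with cycloheximide, which stalls ribosomes on mRNA, before polysomes were collected from sucrose gradients. The WT group was 3 samples of K562 cells with intact RNH1, and the RNH1 KO group was 3 samples of K562 cells in which RNH1, the gene of the ribonuclease inhibitor, had been knocked out by CRISPR-Cas9. How many KO clones the samples came from is not stated. They are called independent replicates with no word on separate cultures, and a p-value therefore covers the spread of these samples alone, part of which may be technical.

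The 40S subunit holds the 18S ribosomal RNA and reads the mRNA. Its head and its body close around the mRNA, which enters between head and shoulder and leaves near the platform. In the nucleolus an early set of proteins binds the precursor RNA while its outer parts are cut off, and a later set, mostly of the head and the mRNA channel, joins or locks in place in the nucleus and cytoplasm. The mRNAs of ribosomal proteins belong to the TOP class, which carry a run of pyrimidines right at the 5′ end (terminal oligopyrimidine), and whose translation is set by mTORC1 and the RNA-binding protein LARP1. Loss of 1 copy of several of these genes causes Diamond-Blackfan anemia, a failure of red cell production.

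The transcription starts of selected members are printed because the TOP run is the sequence these mRNAs share. Each line gives 10 bases before and 20 bases from the annotated RefSeq start (GRCh38.p14), 5′ to 3′ on the strand of the gene, with the unbroken pyrimidine run that begins at the start in capitals. The first 6 belong to the members with the largest decreases of those with a start in the table, and the next 2 to members that did not pass the test. RPS6 was the called member with the smallest decrease, RPS4X showed no run, and RPS24 had the longest.
RPS27, chr1:153990752-153990781, plus strand: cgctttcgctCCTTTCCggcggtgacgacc
RPS29, chr14:49598691-49598720, minus strand: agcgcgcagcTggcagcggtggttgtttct
RPS21, chr20:62387093-62387122, plus strand: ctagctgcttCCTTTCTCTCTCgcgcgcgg
RPS13, chr11:17077648-17077677, minus strand: ctctcgctctCCTTTCgttgcctgatcgcc
RPS26, chr12:56041908-56041937, plus strand: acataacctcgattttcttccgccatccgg
RPS25, chr11:119018324-119018353, minus strand: gcagcgcttcCTTTTTgtccgacatcttga
RPS10, chr6:34426050-34426079, minus strand: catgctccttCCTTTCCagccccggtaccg
RPS16, chr19:39435930-39435959, minus strand: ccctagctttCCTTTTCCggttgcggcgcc
RPS6, chr9:19380217-19380246, minus strand: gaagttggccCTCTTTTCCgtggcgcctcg
RPS4X, chrX:72277229-72277258, minus strand: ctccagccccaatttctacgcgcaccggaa
RPS24, chr10:78033853-78033882, plus strand: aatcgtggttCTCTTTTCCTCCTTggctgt

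Of the 25 members with a start in the table, 19 began with C and at least 5 pyrimidines in a row, which is 76% of them against 4.07% of all 35116 promoters of the table. The pattern searched was a C at the annotated start followed by at least 4 bases that were C or T, on the strand of the gene only. RPS29, RPS26, RPS7, RPS28, RPS4X and RPS15 lacked it, and the RefSeq start of RPS29 lay 12330 bases from that of its GENCODE canonical transcript. The annotated start is 1 position, so no match says only that these letters are not at that position. As medians, the log2 fold changes (KO against WT) were -1.45 for the 19 mRNAs with the run and -1.70 for the 6 without, a description with no test. RPS10 and RPS16, which did not pass the test, began with CCTTTCC and CCTTTTCC, the former also the run of RPS27.

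The targeted gene was lower in KO. RNH1 (ENSG00000023191, chromosome 11, 494512 to 507300 on GRCh38) had 4566, 2857 and 1865 normalized counts in the WT samples and 1058, 1144 and 997 in the KO samples, a log2 fold change of -1.44 (SE 0.26, adjusted p = 0.000338 from limma with Benjamini-Hochberg adjustment), and no KO sample reached a WT sample. Reads in genes numbered 34908202 to 46256928 per sample, so that 3 reads, the count that 0 reads still allows, were worth 2.58 to 3.40 normalized counts. The spread was wider in WT than in KO: the median coefficient of variation of the members was 22.8% in WT and 7.50% in KO, and it was larger in WT for 26 of 28. WT replicate 2 stood apart. It was the lowest WT sample in 25 members, at a median of 70.7% of the mean of the other WT samples, and its share of reads in short noncoding RNA genes was 0.974%, against 3.32% and 3.44% in WT replicates 1 and 3 and 0.585% to 0.656% in KO. The part of short noncoding RNA in the results was not tested, and results are given without WT replicate 2 as well. Of 9 erythroid markers 8 had a mean of at least 10, with HBE1 at 0 in all samples, and their summed level was 97236 to 111294 normalized counts in WT and 79022 to 92013 in KO. The part of these markers in the results was not tested. HBE1 is annotated from 5268345 to 5505652 on chromosome 11, and how reads shared by overlapping genes were counted was not examined. Its 0 therefore does not show that the gene was silent. The labels call the cell type lymphoblast. Of 8 lymphoid markers 3 had a mean of at least 10, MS4A1 was at 0 in all samples, PAX5 and EBF1 had 1 read each at most, and the list summed to 421 to 592 in WT and 614 to 790 in KO. Of 4 monocyte and 3 fibroblast markers 2 and 1 had a mean of at least 10.

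Polysomal levels of the 40S protein mRNAs were lower in RNH1 KO than in WT for 25 of 28 members, and higher for 0. In limma, edgeR's quasi-likelihood test and DESeq2 alike all 28 log2 fold changes of KO over WT were below 0 (those of the 3 that did not pass changed sign with other scalings), so 0 members were higher at an unadjusted p under 0.05 too. By edgeR, with 25.7% of all genes lower, and by DESeq2, with 25.4%, the same 25 members passed. A gene was called at a Benjamini-Hochberg adjusted p under 0.1 from limma on log2(normalized count + 1) over all 16652 genes tested, of which 24.1% were called lower (4012) and 24.1% higher (4010). With the values rescaled to their upper quartile 3228 genes were called lower and 5097 higher, and with the library total 2407 and 6697, and 25 members were called lower under both. The median log2 fold change was -1.66 (quartiles -2.18 and -1.07) against 0.03 for all genes tested. Without WT replicate 2, 26 members were called lower, with a median of -1.78. Every KO sample lay below every WT sample in 25 members, against 25.5% of all genes. Other protein-coding genes in the members' range of coding length, 168 to 885 nucleotides, were called lower more often than genes at large: 55.3% of 2996, and 77.1% of the 166 whose mean reached 10000 (6.21% and 1.2% were called higher). The 25 of 28 members stand beside those shares, and no test between them was made.

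**Figure D1:**
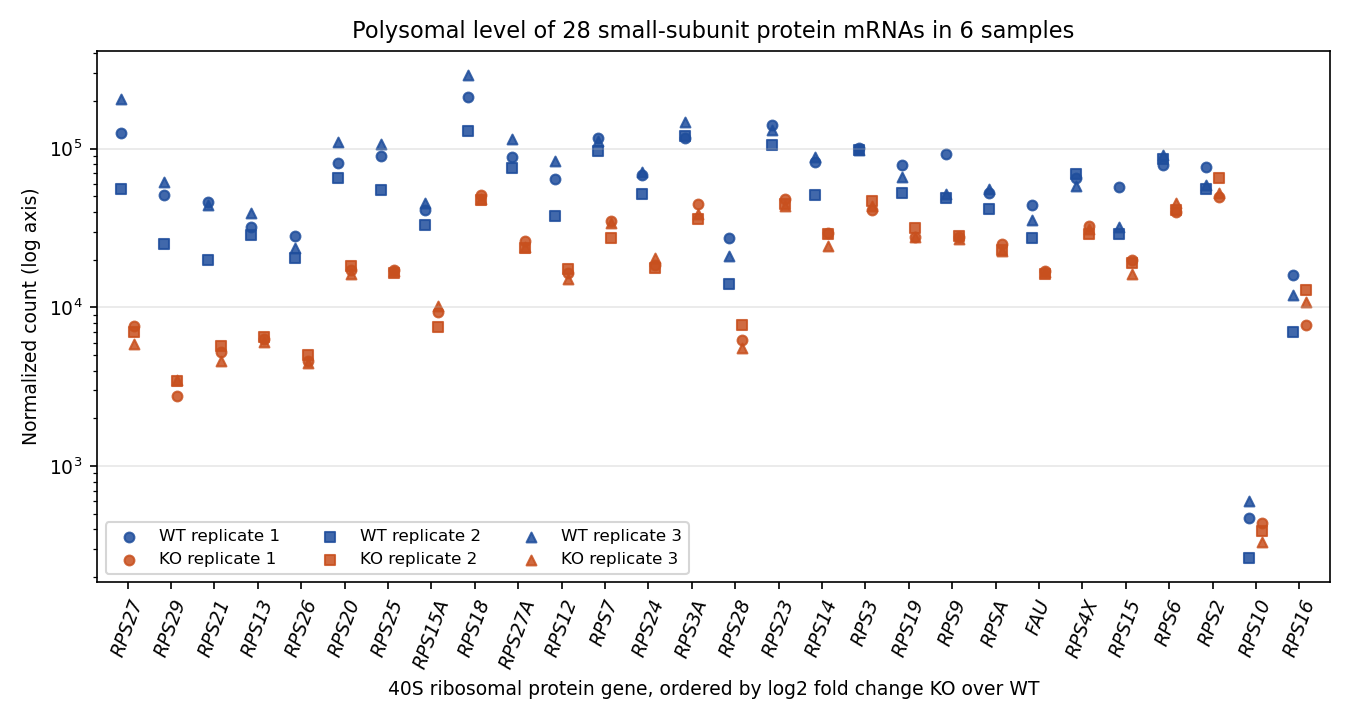
Normalized count (log axis) of each of the 28 mRNAs in the 3 WT samples (blue) and the 3 KO samples (orange), 1 point per sample, with genes ordered by log2 fold change of KO over WT. In 25 genes every orange point is below every blue point, while the points of RPS2, RPS10 and RPS16 overlap, and the square of WT replicate 2 is the lowest blue point in 25 of the 28 genes.

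As a share of all reads in genes, the 28 mRNAs took up 4.30%, 3.36% and 5.00% in the WT samples (4.22% ± 0.824, SD, n = 3) and 1.77%, 1.78% and 1.59% in the KO samples (1.71% ± 0.106, SD, n = 3). No KO sample reached the lowest WT sample. The 47 mRNAs of the large (60S) subunit took 7.65% ± 0.915 in WT and 3.11% ± 0.111 in KO (SD over 3 samples each). Reads of 40S members for each 60S read were therefore 0.548 ± 0.0498 in WT and 0.551 ± 0.0157 in KO, a difference smaller than the spread between samples. In bulk polysomal RNA, fewer cells holding a transcript and less of it per cell cannot be told apart. Total RNA was not analysed here, so less of a transcript in the cell and less of it on polysomes cannot be told apart from these values either. The paper reports, from its total RNA sequencing of K562 cells, unchanged mRNA levels of ribosomal proteins in KO.

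The largest decreases were those of RPS27 and RPS29, both small zinc-binding proteins. RPS27 (ENSG00000177954, chromosome 1, 153990762 to 153992155 on GRCh38, as all coordinates here, plus strand, 4 exons) sits at the platform side of the body and is a Diamond-Blackfan gene. Its normalized counts were 125277, 55854 and 203876 in WT and 7595, 6984 and 5904 in KO. The KO samples were close together at 5.32% of the WT mean, while the WT samples differed 3.65-fold. The log2 fold change was -4.05 (SE 0.34, adjusted p = 4.85e-07), and -4.56 without WT replicate 2, which held 33.9% of the mean of the other WT samples. RPS29 (ENSG00000213741, chromosome 14, 49570984 to 49599164, minus strand, 3 exons), a head protein, had 51106, 25092 and 61240 normalized counts in WT and 2747, 3464 and 3481 in KO. The lowest WT sample was 7.21 times the highest KO sample. Its log2 fold change was -3.74 (SE 0.28, adjusted p = 4.35e-08). The other zinc-binding proteins, RPS26 and RPS27A, were also called, and the 4 had a median log2 fold change of -3.05.

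RPS21 followed, a small eukaryote-specific protein on the solvent side of the body (ENSG00000171858, chromosome 20, 62387103 to 62388520, plus strand, 6 exons). It had 46250, 19773 and 43891 normalized counts in WT and 5229, 5745 and 4616 in KO, a log2 fold change of -2.73 (SE 0.28, adjusted p = 1.34e-06). WT replicate 2 again held less than the mean of the other WT samples (43.9%), but still 3.44 times the highest KO sample. RPS13 (ENSG00000110700, chromosome 11, 17074388 to 17077715, minus strand, 6 exons), an early binder of the central part of 18S RNA, had 32099, 28489 and 39085 in WT and 6296, 6489 and 6076 in KO. Here both groups were tight, and the log2 fold change was -2.39 (SE 0.21, adjusted p = 2.33e-07). RPS26 (ENSG00000197728, chromosome 12, 56041351 to 56044697, plus strand, 4 exons) lies where the mRNA leaves the subunit and is added late. Its normalized counts were 28237, 20462 and 23818 in WT and 4612, 5000 and 4454 in KO, with a log2 fold change of -2.36 (SE 0.21, adjusted p = 2.57e-07). RPS20 (ENSG00000008988, chromosome 8, 56067254 to 56074510, minus strand, 4 exons) is a head protein that is ubiquitinated on collided ribosomes. It had 81702, 65742 and 109973 in WT and 17316, 18316 and 16120 in KO, and its log2 fold change was -2.28 (SE 0.23, adjusted p = 1.25e-06). In each of these 4 genes the groups were separated by at least a 3.44-fold gap between the lowest WT and the highest KO sample.

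The other head proteins decreased less. RPS25, which is needed by some viral internal ribosome entry sites, fell by 2.27 on the log2 scale (SE 0.25). RPS18, at a bridge to the large subunit, had the highest mean level per coding length in KO, although RPS23 was above it in KO replicates 1 and 2, and fell by 2.03 (SE 0.27), RPS27A, made as a fusion with ubiquitin, by 1.90 (SE 0.22), and RPS12, at the beak of the head, by 1.85 (SE 0.26). RPS28, which lines the mRNA exit from the head side, fell by 1.64 (SE 0.25). All 5 passed the test, with adjusted p from 2.86e-06 to 7.47e-05 in limma, but RPS28 no longer passed once a trend with coding length was subtracted (-0.05).

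RPS3 and RPS19 were each close to a log2 fold change of -1.2. RPS3 (ENSG00000149273, chromosome 11, 75399515 to 75422280, plus strand, 7 exons) forms part of the mRNA entry site. It had 100997, 97874 and 98347 normalized counts in WT and 40956, 46938 and 43759 in KO. This was the tightest WT group of all members, with a range of 1.03-fold and WT replicate 2 at 98.2% of the other WT samples. Its log2 fold change was -1.18 (SE 0.21, adjusted p = 0.000356). RPS19 (ENSG00000105372, chromosome 19, 41860255 to 41872925, plus strand, 6 exons), the gene most often mutated in Diamond-Blackfan anemia, had 79071, 52796 and 65831 in WT and 27632, 31770 and 27601 in KO. The groups did not overlap, and the log2 fold change was -1.17 (SE 0.22, adjusted p = 0.00062). With a trend of every sample with coding length subtracted, a correction chosen after the data were seen, RPS19 no longer passed (-0.28, adjusted p = 0.229). With coding length and GC content both corrected, RPS19 did pass (-0.46, adjusted p = 0.0163). RPS15 (ENSG00000115268, chromosome 19, 1438358 to 1440495, plus strand, 4 exons) reaches toward the decoding site and had 57621, 29100 and 32227 in WT and 19828, 19152 and 16148 in KO. WT replicate 1 was far above the others. The log2 fold change was -1.05 (SE 0.25, adjusted p = 0.00361, the largest among the called members), and -0.74 without that sample. With the coding length correction it was -0.16 and no longer a call. With coding length and GC content both corrected it was -0.40 and a call (adjusted p = 0.0767).

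Among the proteins of the body and the platform, RPS15A fell by 2.14 on the log2 scale (SE 0.22), RPS7, a Diamond-Blackfan gene that binds the precursor early, by 1.75 (SE 0.22), and RPS24, likewise, by 1.74 (SE 0.22). RPS3A, which wraps the platform next to the mRNA exit, fell by 1.68 (SE 0.22). RPS23, whose hydroxylated proline lies in the decoding center, fell by 1.45 (SE 0.22), and RPS14, the platform protein lost in 5q- syndrome, by 1.39 (SE 0.24). RPS9, a binder of the 5′ domain of 18S RNA, fell by 1.16 (SE 0.25), RPSA, the platform protein also known as the laminin receptor, by 1.08 (SE 0.21), and FAU, which encodes RPS30 fused to a ubiquitin-like protein, by 1.07 (SE 0.22). All 9 passed in limma, with adjusted p from 1.36e-06 to 0.00157. However, FAU no longer passed with the coding length correction (-0.09), nor RPS23 with coding length and GC content both corrected (-0.36). FAU did pass with both corrected (-0.30, adjusted p = 0.0842), and RPS23 with coding length alone (-0.55, adjusted p = 0.0169).

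RPS4X and RPS6 had the smallest decreases of the called body proteins. RPS4X (ENSG00000198034, chromosome X, 72255679 to 72277248, minus strand, 7 exons), the X-linked copy of the gene, had 65624, 69325 and 58117 normalized counts in WT and 32555, 28995 and 31147 in KO. RPS6 (ENSG00000137154, chromosome 9, 19375715 to 19380236, minus strand, 6 exons), the target of S6 kinase downstream of mTORC1, had 78654, 86288 and 90731 in WT and 40056, 40953 and 45179 in KO. In both genes WT replicate 2 was not the lowest WT sample, and the KO samples lay at 48.0% and 49.4% of the WT mean. The log2 fold changes were -1.06 (SE 0.21, adjusted p = 0.000856) for RPS4X and -1.02 (SE 0.21, adjusted p = 0.0012) for RPS6.

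RPS2, RPS10 and RPS16 did not pass the test. RPS2 (ENSG00000140988, chromosome 16, 1962058 to 1964841, minus strand, 7 exons), a body protein at the mRNA entry site beside RPS3, had 76720, 55316 and 58636 normalized counts in WT and 49556, 64889 and 52338 in KO. The groups overlapped, with KO replicate 2 above WT replicates 2 and 3, and the log2 fold change was -0.19 (SE 0.23, adjusted p = 0.533). RPS16 (ENSG00000105193, chromosome 19, 39433137 to 39435949, minus strand, 5 exons), a head protein, had 15967, 6985 and 11889 in WT and 7724, 12816 and 10814 in KO. Both groups spanned about the same values, and the log2 fold change was -0.10 (SE 0.28, adjusted p = 0.794). RPS10 (ENSG00000124614, chromosome 6, 34417454 to 34426069, minus strand, 6 exons), a head protein and Diamond-Blackfan gene, had 473, 264 and 602 in WT and 437, 390 and 332 in KO. Its log2 fold change was -0.13 (SE 0.27, adjusted p = 0.719), and -0.47 (adjusted p = 0.0838, a call) without WT replicate 2. RPS10 overlaps the read-through gene RPS10-NUDT3 on the same strand, which itself had no more than 4.17 normalized counts in any sample, and at 901 normalized counts per kilobase of coding sequence in WT it was far below RPS16, the next lowest member, at 26515. Whether reads in the shared exons were counted to RPS10, to RPS10-NUDT3 or to neither cannot be told from the table. The RPS10 values may therefore miss part of its mRNA, here and in every count that includes RPS10. The signs of RPS10 and RPS16 turned positive under upper-quartile scaling, and those of all 3 genes under scaling to the library total, so no direction is given for them. A p over the threshold does not show that the levels of these 3 mRNAs were equal.

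Of all members, RPS28 had the most reads counted to pseudogenes of its name in relation to its own level. Reads that match several copies equally well cannot be traced in these values. Few reads in pseudogenes therefore do not show that a member was untouched by its copies. The pseudogene RPS28P7 on chromosome 11 (82689559 to 82689768) had 32308, 19923 and 28449 normalized counts in WT and 3979, 3644 and 3087 in KO. Its log2 fold change was -2.89 (SE 0.22, adjusted p = 6.80e-08). The RPS28 pseudogenes held 129% of the RPS28 level in WT and 55.1% in KO, so which of these reads came from RPS28 is uncertain, and RPS28 summed with them had a log2 fold change of -2.21 in place of -1.64. For RPSA the pseudogenes held 7.49% of the gene's level in WT, for RPS2 7.21%, for RPS10 6.59% and for RPS27 2.45%. The most abundant copy of RPS27, RPS27P3, fell by 4.73 on the log2 scale. Among the other 27 members the sum with the pseudogenes moved the log2 fold change most for RPS15A, from -2.14 to -2.12. RPS15A also overlaps an unnamed coding gene and FAU overlaps SYVN1, each on the same strand.

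By place in the subunit, 10 of 12 head proteins and 15 of 16 proteins of the body and platform were called lower, and none higher, beside 24.1% lower over all genes tested and 55.3% over other coding genes of the members' lengths. The median log2 fold change was -1.75 in the head and -1.56 in the body and platform, beside 0.03 for all genes tested. By stage, 12 of 13 early binders were called lower with a median of -1.64, and 13 of 15 later ones with a median of -1.85. Each pair of medians lay well within the range of its groups, from -3.74 to -0.10 in the head and from -4.05 to -0.19 in the body and platform. The extremes were split too: RPS27 was an early body protein and RPS29 a later head protein, RPS16 an early head protein and RPS2 a later body protein. These medians have no test of their own, and no difference between places or stages is claimed from them.

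**Figure D2:**
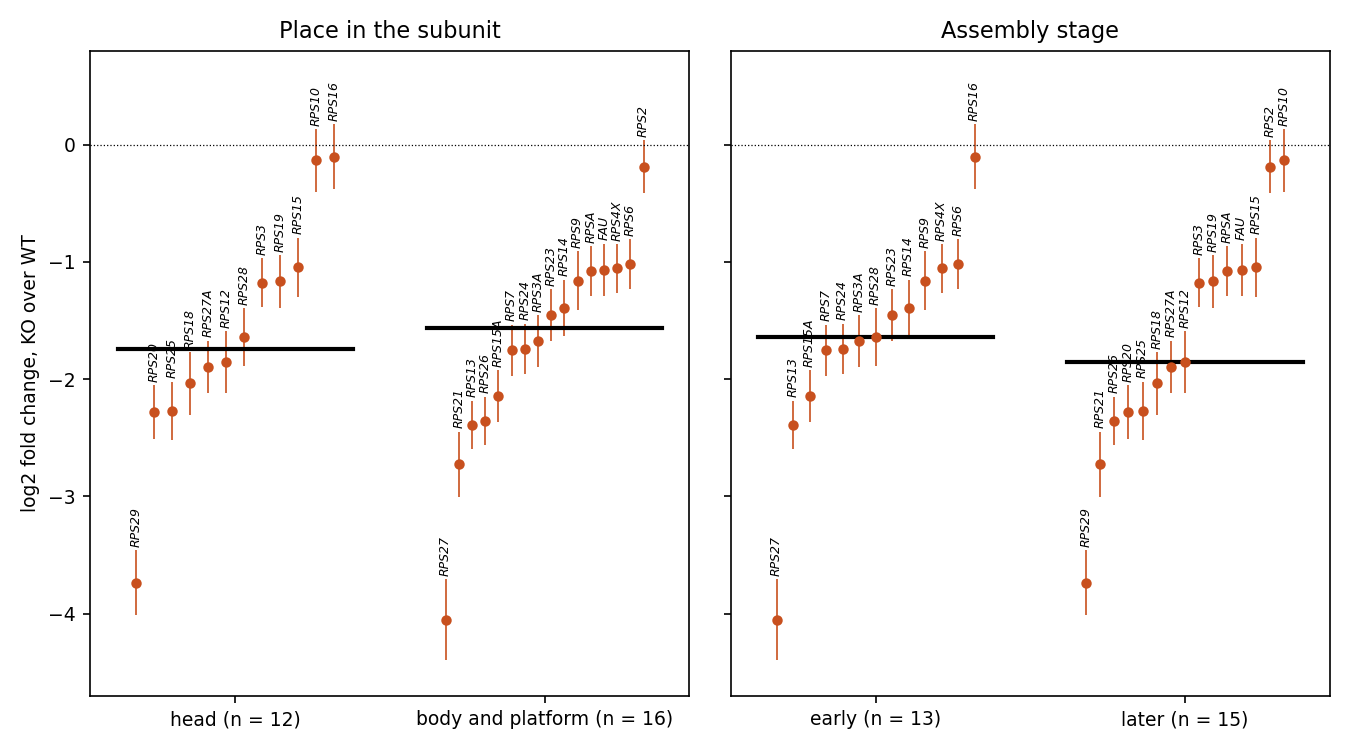
Log2 fold change of KO over WT of each 40S protein mRNA (point, with a bar of 1 standard error on each side) by place in the subunit (left) and by assembly stage (right), with thick lines at the group medians. The groups span nearly the same range, with medians of -1.75 (head), -1.56 (body and platform), -1.64 (early) and -1.85 (later).

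Of the 8 members listed as Diamond-Blackfan genes, 7 passed as lower, all but RPS10, with a median log2 fold change of -1.75. For this and the next counts too, the shares lower were 24.1% of all genes tested and 55.3% of other coding genes of the members' lengths. Members with a bacterial homolog numbered 13, of which 11 were called lower with a median of -1.39, and 14 of the 15 shared with archaea or found only in eukaryotes were called lower with a median of -1.74. Of the members, 7 hold small nucleolar RNA genes within their bounds (RPS13, RPS20, RPS12, RPS3A, RPS3, RPSA and RPS2), and their median log2 fold change was -1.68 against -1.64 for the 21 without. The genes are spread over 16 chromosomes, with 5 on chromosome 19, 4 on chromosome 11 and 3 on chromosome 6.

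The decreases were largest among the members with the shortest coding sequences and smallest among the longest. The 4 members of up to 300 nucleotides (RPS29, RPS28, RPS21 and RPS27) had a median log2 fold change of -3.23, the 11 members of 301 to 450 nucleotides of -1.74, the 7 of 451 to 600 of -1.75 and the 6 of 601 to 900 of -1.07. Other protein-coding genes showed smaller medians that also shrank with length: -1.19 (254 genes), -1.02 (560), -0.61 (702) and -0.41 (1599) in the same ranges. The 60S protein mRNAs had medians of -2.97, -1.81, -1.78 and -1.17. Within the length ranges the members still differed: of the shortest, RPS28 had a log2 fold change of -1.64 and RPS27 of -4.05, and in the next range RPS26 had -2.36 and RPS16 -0.10. Across the 28 genes, which share the same 6 libraries and are not independent replicates, Pearson's r of log2 fold change with coding length was 0.60 and Spearman's rho 0.64, and 0.46 and 0.53 over the 24 members longer than 300 nucleotides.

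**Figure D3:**
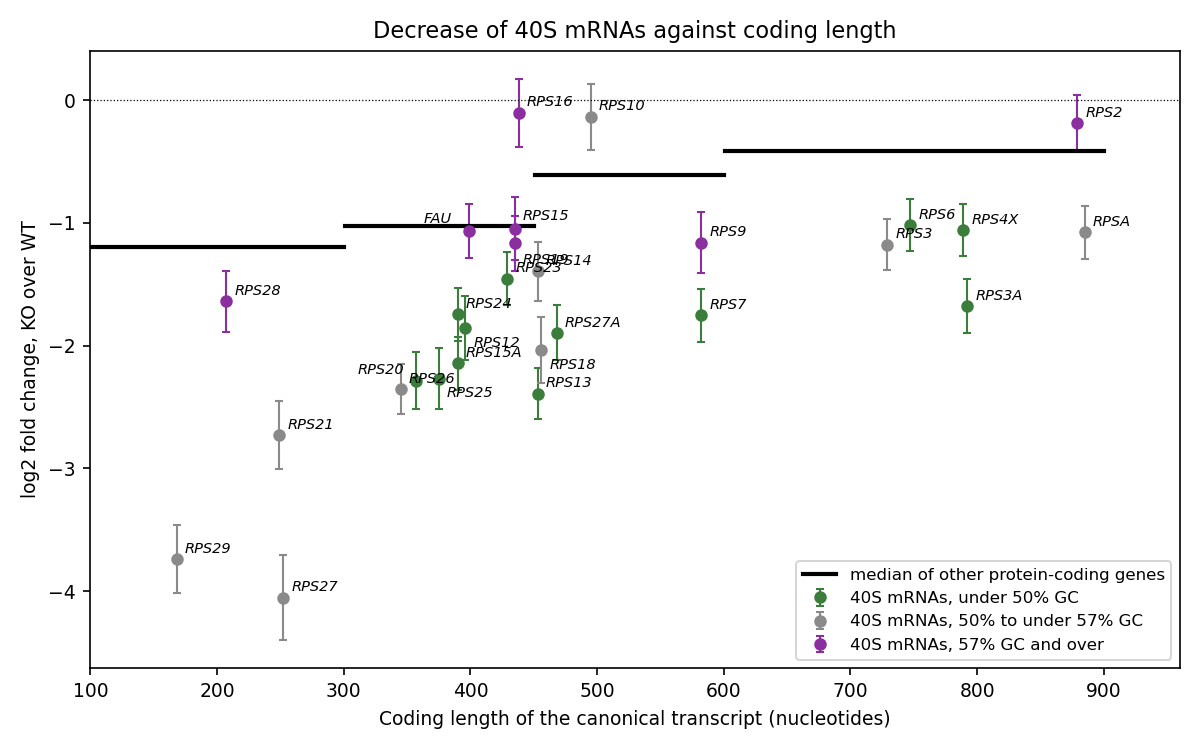
Log2 fold change of KO over WT (bars, 1 standard error on each side) against coding length in nucleotides for the 28 mRNAs, colored by the GC content of the coding sequence, with black lines at the median of other protein-coding genes in 4 length ranges. Of the members, 25 lie below the line of their range (-1.19, -1.02, -0.61 and -0.41 from short to long), and RPS2, RPS10 and RPS16 lie above it.

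Coding GC content moved with the result as well. All 12 members under 50% GC were called lower, with a median log2 fold change of -1.80, as were 8 of 9 with 50 to under 57% GC (-2.03) and 5 of 7 with at least 57% (-1.07). Other protein-coding genes of the same length range had medians of -0.87, -0.54 and -0.28. Of these other genes, 842 of 1129, 411 of 766 and 404 of 1101 were called lower, which also became less frequent with GC content. Over all genes tested 24.1% were called lower. Length and GC content were not related to each other within the members (rho -0.00466). When the trend of every sample with coding length over all protein-coding genes was subtracted, 21 members were called lower and 2 higher, beside 20.2% lower and 20.6% higher of the 11968 genes tested in that fit, and the median of the members was -0.76. Then RPS28, RPS19, FAU and RPS15 no longer passed, with log2 fold changes of -0.05, -0.28, -0.09 and -0.16. RPS10 and RPS16 passed as higher, at 0.63 and 0.78 (adjusted p = 0.0602 and 0.0312, limma), while RPS27 went from -4.05 to -2.65 and RPS29 from -3.74 to -1.96, both still called lower. With coding GC content corrected as well, 23 were called lower and 1 higher with a median of -0.79, beside 21.8% lower and 23.7% higher over the same genes. RPS19, FAU and RPS15 were then among those called lower, while RPS28 and RPS23 were not. The part of length and GC content in the decrease was not tested beyond these values.

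The order of the members by level changed between the genotypes. Levels are compared here as normalized count per kilobase of coding sequence, since several canonical transcripts carry long 3′ untranslated regions. RPS27 was first of 28 in the WT mean, at 509268, and number 20 in KO, at 27093. In WT replicate 2 it was not first, at 221642 below RPS18 (284068) and RPS23 (243866). RPS29 went from 4 to 25 and RPS21 from 14 to 24, while RPS2 went from 24 to 4 and RPS19 from 13 to 3. RPS18 and RPS23 were near the top in both genotypes, RPS18 going from 2 to 1 and RPS23 from 3 to 2, with KO levels of 106916 and 106024 that differed by less than the spread between samples. Leaving out RPS10, the highest member was 13.6, 17.8 and 29.8 times the lowest in the WT samples and 8.37, 7.31 and 8.13 times in the KO samples. The SD of the log2 level per kilobase over the 27 genes was 0.86, 0.86 and 1.09 in WT and 0.81, 0.76 and 0.78 in KO, so the levels were closer together in every KO sample than in any WT sample.

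**Figure D4:**
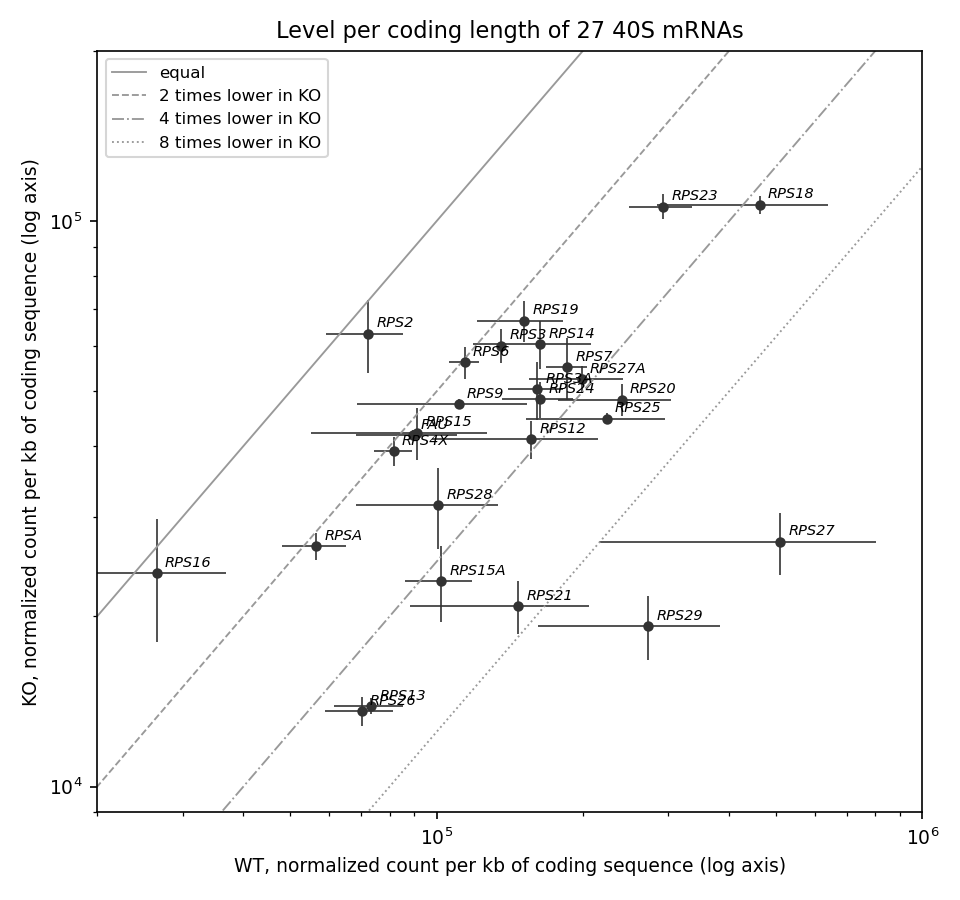
Mean normalized count per kilobase of coding sequence in KO against WT (both axes log) for 27 of the 40S protein mRNAs, leaving out RPS10, with bars of 1 SD over 3 samples and lines for equal levels and for levels 2, 4 and 8 times lower in KO. RPS2 and RPS16 lie near the line of equality, while RPS27 and RPS29 lie beyond the line of 8 times.

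The make-up of the polysomal 40S mRNA pool shifted accordingly. RPS27 was 6.27% ± 2.67 of the members' normalized counts in the WT samples and 1.09% ± 0.120 in the KO samples (SD, n = 3 for both). RPS18, the member with the largest share in WT, went from 10.6% ± 2.16 to 7.77% ± 0.248. RPS2 went from 3.33% ± 0.631 to 8.85% ± 1.24, the largest share in KO, and RPS6 from 4.52% ± 1.08 to 6.71% ± 0.555. For all 4 of these mRNAs the means differed by more than the SDs of both groups. The shares add to a whole, so a smaller share of some mRNAs raises that of the others.

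The mRNAs of the 60S subunit were lower too. Of 47, 46 were called lower and 0 higher, and the median log2 fold change was -1.64 against -1.66 for the 40S members. Beside this, 24.1% of all genes tested were called lower. Of other coding genes of the 40S members' lengths it was 55.3%, and 77.1% of those whose mean reached 10000. The largest decreases were in RPL39 (-3.74), RPL37A (-3.58), RPL37 (-2.97) and RPL38 (-2.91), all of them small proteins, and RPL3, with -0.30 (SE 0.22), was the 1 that did not pass. No test of the difference between the subunits was made.

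Factors that build the 40S subunit but are not part of it are a separate list. Of 30 assembly factors listed, 5 were called lower, 5 higher and 20 neither, with a median log2 fold change of -0.02. Neither count reached the 24.1% of all genes tested that were called in each direction, so neither is a result about the list. Without KO replicate 3 the number called higher was 2, and without KO replicate 2 or WT replicate 3 it was 3. The called genes are given for their values. The dimethyltransferase DIMT1, which modifies 18S RNA, had 3536, 5542 and 4698 normalized counts in WT and 2486, 2508 and 2270 in KO (-0.90, SE 0.21, adjusted p = 0.00244). PNO1, which guards the 3′ end of 18S RNA until the last cut, fell by 0.89 on the log2 scale (SE 0.20), EMG1, a pseudouridine methyltransferase, by 0.87 (SE 0.19) and IMP3, a part of the U3 particle, had a log2 fold change of -0.80 (SE 0.20). KRR1 was the fifth. The helicase DHX37, which frees U3 from the precursor, had 3732, 2982 and 2456 normalized counts in WT and 5059, 6140 and 7074 in KO, and rose by 1.00 (SE 0.21, adjusted p = 0.00148). CSNK1D, a kinase of late 40S maturation, rose by 0.99 (SE 0.21), NAT10, an acetyltransferase of 18S RNA, by 0.61 (SE 0.20) and NOP14 by 0.58 (SE 0.23), with NOL6 the last of the 5. The split depended on scaling, with 4 lower and 7 higher after upper-quartile scaling and 4 lower and 11 higher after scaling to the library total, and no test between the lists was made.

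RPS27L, a gene of another protein closely related to RPS27 and outside the members, fell by 2.76 on the log2 scale (SE 0.26, adjusted p = 5.17e-07). Its normalized counts were 3435, 1984 and 4787 in WT and 520, 456 and 437 in KO. As in RPS27, WT replicate 2 was the lowest WT sample and the groups did not overlap.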

How the data were processed

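Polysomal RNA from 6 K562 samples (3 WT, 3 RNH1 KO) was turned by the authors into stranded total RNA libraries and sequenced in pairs of 150-base reads. HISAT2 (2.2.1 in the submitters' processing notes) placed the reads on GRCh38 and featureCounts (2.0.1) counted them by Ensembl gene, after FastQC (0.11.9). The methods of the paper name other versions, and no source used here states the strand setting of the counts. The deposited signal is the gene count divided by the authors with a size factor from DESeq2 (1.36.0), 1 for each sample. It is called the normalized count here. Beside these stand the authors' mean of each genotype and the authors' own comparison, with its log2 fold changes, their errors, a score and p-values. None of these was used. All sample columns were matched to samples (0 unmapped).

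Dividing by the value of 1 read gave whole numbers for 100% of nonzero values in each sample (tolerance 1e-06), so reads were recovered. Genes whose mean was 10 or more were compared by limma 3.58.1 (R 4.3.3) on log2(value + 1), using the trend and robust options and no term but genotype. A fold change on this scale understates that of low genes. Every adjusted p in the text is from this fit, with Benjamini-Hochberg adjustment over all genes tested and a threshold of 0.1, unless another setting is named beside it. On the recovered reads, edgeR 4.0.16 (quasi-likelihood) and DESeq2 1.42.0 served as alternatives. The fits were tested on simulated data. The corrections for coding length and coding GC content were added after the data were seen. Floors cover counting error only, whereas standard errors (from limma) and SDs reflect the spread between samples.

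Coding lengths, GC content and coordinates are of GENCODE 44 canonical transcripts on GRCh38, and start sequences of RefSeq (GRCh38.p14), which had 25 of the 28 genes. The assignment of members to place and stage came from textbook knowledge. The members, lists and comparisons were chosen with earlier results of these data known. By the rule for naming genes, all members are described, with every sample's value for the 6 lowest and 6 highest log2 fold changes, for members that did not pass, and for RPS3 and RPS19, and of each other list up to 4 called genes with the largest absolute change. Values of some marker genes that the rule names are left out. KRR1, NOL6, RPL3, RPS27L, RPS28P7, RPS27P3 and the overlapping genes were named after their values were seen. Figures were drawn with matplotlib 3.10.9 in Python 3.11.15.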

Additional observations from a re-analysis of the deposited data

How the results depend on the processing

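The number of members called lower was 21 to 26 under all 21 other settings, and the 2 lists by place and the 2 by stage kept negative medians. The corrections for coding length, with or without GC content, moved the medians most, and scaling less. Relative to the deposited scaling, the library total shifted all genes by 0.33 in the median on the log2 scale and the upper quartile by 0.14. With the library total the median was -1.33 for the members, -1.42 for the head, -1.24 for the body and platform, -1.31 for early and -1.53 for later binders and -1.31 for the 60S mRNAs, with 2407 genes lower, 6697 higher and 11 assembly factors higher, and RPS2, RPS10 and RPS16 stood at 0.14, 0.19 and 0.22. With the upper quartile the 60S median was -1.50, and RPS10 and RPS16 stood at 0.0059 and 0.038. A mean of at least 100 left 2614 genes higher, and limma without trend or robust shrinkage 3 assembly factors higher. The transcript length correction gave medians of -1.43 (members) and -1.37 (early binders), with RPS2, RPS10 and RPS16 at 0.12, 0.057 and 0.12.

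The coding length correction left 21 members lower and 2 higher, 2423 genes lower, 2465 higher and 3 assembly factors higher. Its medians were -0.76 (members), -0.81 (head), -0.76 (body and platform), -0.67 (early), -0.88 (later) and -0.82 (60S), with RPS2, RPS10 and RPS16 at 0.13, 0.63 and 0.78. With coding length and GC content both corrected, 1 member was higher, 2605 genes were lower, the medians were -0.79, -0.78, -0.80, -0.71, -0.85 and -0.85 in the same order, and RPS10 and RPS16 stood at 0.49 and 0.61, while RPS28 and RPS23 no longer passed (-0.28 and -0.36). The GC correction alone called RPS2 lower (-0.37, adjusted p = 0.0848) and 8 assembly factors lower and 9 higher. The cause of these shifts was not tested.

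Leaving out 1 sample gave 25 to 26 members lower, a median of -1.78 to -1.55 for the members, -1.97 to -1.60 for the head, -1.68 to -1.49 for the body and platform, -1.72 to -1.41 for early and -2.04 to -1.60 for later binders and -1.78 to -1.56 for the 60S mRNAs. Assembly factors called higher were 2 to 6, so that KO replicate 3 (2 without it), WT replicate 3 and KO replicate 2 (3 without either) decided that count. RPS16 ranged from -0.43 to 0.17, with 0.17 without WT replicate 1 and 0.10 without KO replicate 1, and RPS10 from -0.47 to 0.12, with 0.12 without WT replicate 3.

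WT and KO samples share replicate numbers, but same-numbered samples did not deviate together (correlations of -0.16, -0.19 and -0.27), and no sample correlated best with its own number. A replicate block left 25 members lower with a median of -1.66, and 3310 genes lower and 3243 higher, and changed no call of a member. The replicate block with the transcript length correction gave medians of -1.43 (members) and -1.37 (early binders), with RPS2, RPS10 and RPS16 at 0.12, 0.057 and 0.12. The sum over rows of 1 symbol was not run, since each symbol had 1 row. Every member stood far above the 3 reads that a count of 0 allows, with RPS10 lowest at 264 to 602 normalized counts per sample.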
